A study of Equus caballus with 56 samples.

Results

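Imprinted genes and other genes of fetal growth were followed from the newborn to the adult horse in articular cartilage (AC) and subchondral bone (SCB). The 10 genes were DLK1, PEG3, MEST, PLAGL1, CDKN1C, GRB10, IGF2BP2, IGF2BP3, LIN28B and HMGA2, taken by symbol. In AC 9 of them were matched among 16440 genes, and in SCB 8 among 18009 genes. LIN28B in both tissues and DLK1 in SCB were not analysed here.

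RNA sequencing was done on tissue of grossly normal hind limb joints, namely the fetlock (metatarsophalangeal), hock (tarsocrural) and stifle (femoropatellar). The 6 foals were 1 day, 3 days, 1 week, 2 weeks, 3 weeks and 4 weeks old, with 1 foal at each age, and the 6 adults were 8 to 12 years old. Each foal had 1 value per joint and tissue, which for the stifle AC of the 3-day and 1-week foals is the sum of a superficial and a deep sample. Of the adults 4 gave 1 library per tissue pooled over the joints and 2, the 8-year-old and a 12-year-old, were sequenced by joint. The AC stifle of that 8-year-old and the AC fetlock of that 12-year-old were not analysed here, so their AC means rest on 2 joints each. This made 18 foal and 8 adult libraries in AC and 18 foal and 10 adult libraries in SCB. The labels give 5 male and 1 female foal but 3 female and 3 neutered adults, and the horses were of several breeds and had no treatment in the labels. Sex is given here as labelled, although the title of 1 adult labelled female holds the letter M and the study's methods number the adult sexes otherwise. By the labels age and sex are largely confounded. The question was whether fetal growth genes are higher in foals than in adults, in which tissue and joint, and whether their levels change between day 1 and week 4.

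Genomic imprinting silences 1 parental copy of a gene. Many genes expressed from the paternal copy promote fetal growth, and several expressed from the maternal copy restrain it, and in mammals much of this expression wanes after birth. A second group of fetal genes centres on the LIN28 proteins, which block maturation of the let-7 microRNAs; HMGA2 and the IGF2BP proteins, which bind the mRNA of insulin-like growth factor 2 (IGF2) and other transcripts, are well-known let-7 targets. Imprinting itself was not measured, since the tables hold no allele counts.

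Levels are given in log2 CPM (sequenced reads of a gene scaled to a common library total), in which a difference of 1 stands for a doubling and a gene without reads is listed at -3.17 in AC and -2.96 in SCB. At the mean library, 3 reads equal 0.111 CPM in AC and 0.129 CPM in SCB. CPM is not scaled by gene length, so each gene is compared only with itself, and each tissue was normalized on its own. In bulk tissue, a lower level can mean fewer cells of a type or less RNA per cell, and these cannot be told apart.

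The tissue labels were checked against defining genes. A gene was called where limma's TREAT test against a fold change of 1.5 gave an adjusted p under 0.05 in at least 1 joint, adjusted by Benjamini-Hochberg over all genes and 9 contrasts. Of all genes 3.996% were called higher in foals and 2.79% lower in AC, and 9.26% higher and 10.6% lower in SCB. In AC the summed level of 8 chondrocyte genes was 59680 to 440600 CPM in foals and 25350 to 58640 CPM in adults, and 5 of the 8 were called higher in foals, as were 2 of 5 osteoblast genes in AC. In SCB 5 measured osteoblast genes summed to 35950 to 88370 CPM in foals and 7593 to 61150 CPM in adults, and 1 of the 5 was called higher. Among other bone and cartilage genes in SCB, 4 of 8 chondrocyte genes were called higher and 1 lower, with sums of 695 to 9479 CPM in foals and 662.5 to 4393 CPM in adults. Of 6 osteoclast genes 2 were higher, and of 4 osteocyte genes 1 was higher and 2 lower. Marrow genes differed by age in SCB: all 4 myeloid precursor genes and all 5 B cell genes were higher in foals, with sums of 178 to 2371 CPM against 0.535 to 2.79 CPM and of 15.8 to 49.7 CPM against 0.964 to 2.71 CPM, and VPREB1 was without reads in all adults. The 5 erythroid genes in SCB, of which 1 was called higher, summed to 60.7 to 2177 CPM in foals and 36.4 to 119 CPM in adults, and the sums of the 3 oldest foals, 980 to 2177 CPM, were far above those of the 3 youngest, 60.7 to 137 CPM. Other marrow genes in SCB went the other way: 2 of 3 haematopoietic progenitor genes and 4 of 5 adipocyte genes were lower in foals, with sums of 59.9 to 85.8 CPM against 261 to 659 CPM and of 637 to 2452 CPM against 1900 to 5556 CPM. A pair of genes of the synovial lining and superficial cartilage zone, of which 1 was called lower in each tissue, summed to 1207 to 5055 CPM in foal AC and 6999 to 19790 CPM in adult AC, and to 2.56 to 134 CPM and 138 to 1573 CPM in SCB. In AC 3 of 4 endothelial genes were higher in foals, with sums of 79.6 to 272 CPM against 8.72 to 550 CPM, which overlap. In SCB 1 of the 4 was called lower, with sums of 478 to 1677 CPM against 1097 to 2094 CPM, which also overlap. The part of any of these in the results was not tested.

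Some libraries stood apart. The AC fetlock library of the 8-year-old adult listed 1884 genes at the lowest value, against at most 997 in any other AC library. The 1-week foal lay apart from the other foals in AC for PEG3, GRB10 and, in the fetlock, IGF2BP2, and its chondrocyte genes summed to 59680 CPM, against 177000 CPM or more in the other foals. In AC a pooled 10-year-old had osteoblast, endothelial and haematopoietic progenitor sums of 3083, 550 and 140 CPM, where the other adults had at most 358, 99.0 and 5.8 CPM. The 4 pooled adults, 4 of the foals, and the remaining 2 foals (3 days and 1 week) with the 2 adults sampled by joint were sequenced in separate batches (a centre or an instrument run, per the study's methods), so both ages meet in only 1 batch. A fit with batch as a term therefore takes the age difference from that batch.

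Fitted differences are means of the joints unless a joint is named, and an adjusted p beside such a mean is the smallest of the 3 joints. Ranges of foals and of adults are over horse means unless libraries or a joint are named. In AC 4 of 9 members were called higher in foals (DLK1, MEST, IGF2BP3 and PEG3) and 0 lower, where 3.996% of all AC genes were called higher and 2.79% lower. In SCB 3 of 8 were called higher (IGF2BP3, IGF2BP2 and MEST) and 1 lower (CDKN1C), where 9.26% of all SCB genes were called higher and 10.6% lower. The median fitted difference, foal minus adult, was 1.28 over the members and 0.0282 over all genes in AC, and 0.927 and -0.0347 in SCB. The members, and the gene lists used below, were chosen with earlier results of these data known. The values over all genes are thus given for scale and are no test of enrichment. Because the tables keep genes that reached 1 CPM in 2 or more samples, a gene near 0 in adults entered only through the foals. This holds for DLK1 in AC and for IGF2BP3, whose highest adult library was at 0.37 CPM in AC and 0.316 CPM in SCB. These counts therefore describe the members measured and do not speak for the others. MEST and IGF2BP3 were called higher in both tissues. A fit on horse means (1 value per horse) was run for comparison and holds no surrogate variables. The fit reported takes libraries as the unit although those of 1 horse are correlated. With horse as a random effect and no surrogate variables, PEG3 in AC (0.99, adjusted p = 0.418) and CDKN1C in SCB (-1.57, adjusted p = 0.117) were not called, and the other 6 calls of members held.

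**Figure D1:**
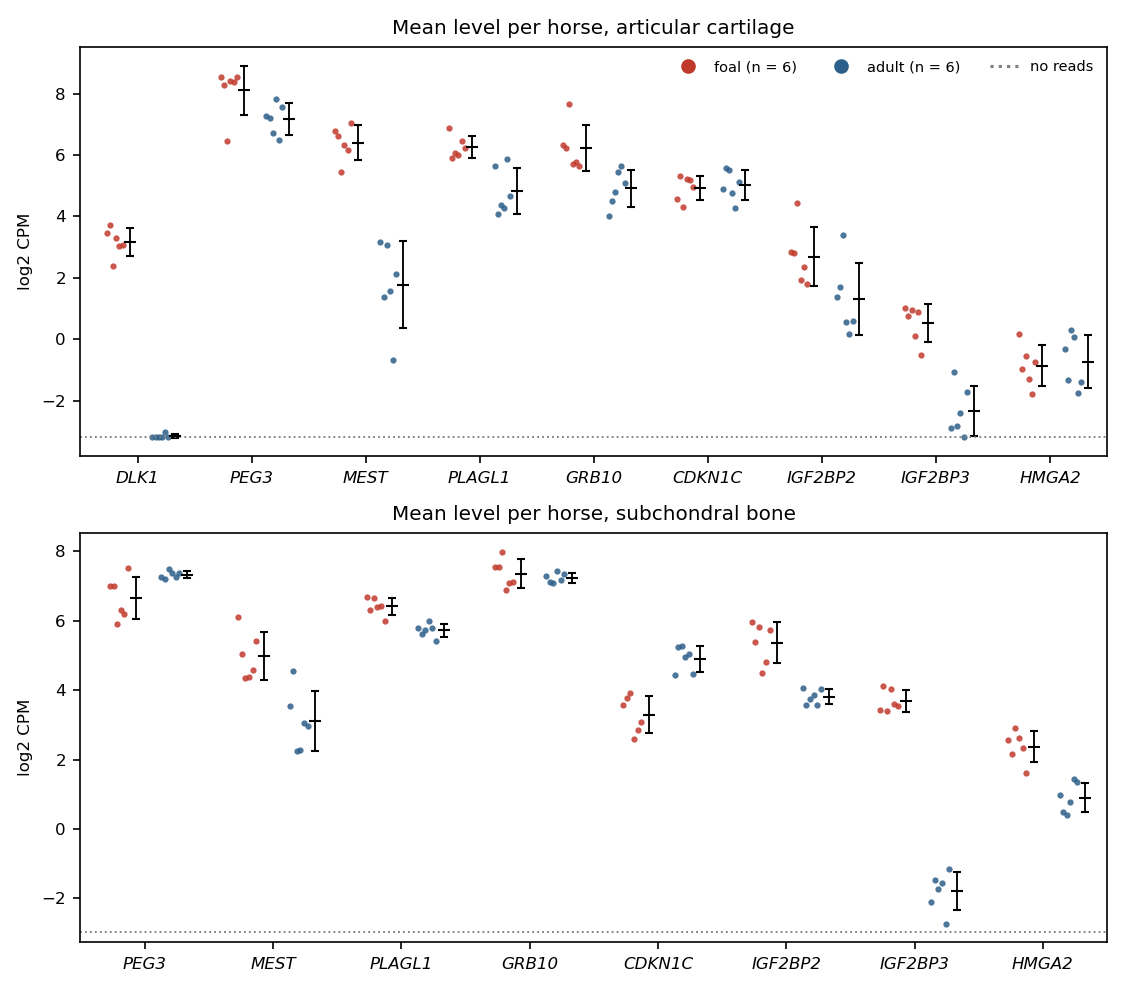
Mean log2 CPM per horse for each member in AC (upper panel) and SCB (lower panel), with foals in red and adults in blue, black bars for the mean and SD of 6 horses, and a dotted line at the value of a gene without reads. In AC all foals lie above all adults for DLK1, MEST, PLAGL1, GRB10 and IGF2BP3, and in SCB for PLAGL1, IGF2BP2, IGF2BP3 and HMGA2, while CDKN1C is lower in all foals in SCB.

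Over horse means, every foal was above every adult for 5 of 9 members in AC (DLK1, MEST, PLAGL1, GRB10 and IGF2BP3), where 4.87% of all genes showed this, and 0 members were below in all foals, where 5.85% of all genes were. In SCB this held for 4 of 8 members (PLAGL1, IGF2BP2, IGF2BP3 and HMGA2), against 10.99% of all genes, and CDKN1C was below in all foals, against 13.96%. With 6 foals and 6 adults the smallest p of the exact two-sided permutation test is 0.00216, and each of these members had it. DLK1 in AC and IGF2BP3 in both tissues passed the CPM filter only through the foals. That filter favours their separation, so for them the separation and its p are descriptive only. An exact permutation p under 0.05 was reached by 6 of 9 members in AC and 7 of 8 in SCB, but also by 40.4% and 55.2% of all genes. GRB10 and PLAGL1 in AC and PLAGL1 and HMGA2 in SCB did not overlap between the ages but were not called by the TREAT test.

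DLK1, a paternally expressed transmembrane ligand of the Notch family that holds back differentiation of precursor cells, lies on chr24:43042141-43050221 (EquCab3.0, plus strand). In AC its foal libraries ranged from 0.75 to 5.07 log2 CPM with a median of 3.04, which is 42.3 to 908 reads at the mean library. In the adults 7 of 8 libraries had no reads and the stifle library of a 12-year-old had -2.84, about 1 read. No foal library came near the adult range. The 6 foal means averaged 3.16 ± 0.45 (SD) and the 6 adult means -3.14 ± 0.07 (SD). The fitted difference was 6.41 (SE 0.31), and the adjusted p of the TREAT test was 2.9e-07 (fetlock), 1.36e-07 (hock) and 1.48e-07 (stifle). A log2 difference at this depth depends on the constant added before the log, so the ratio was also taken from CPM: with 1 read over 8 adult libraries it was 2330, with an exact 95% Poisson interval of 419 to 92200 that covers counting error only.

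MEST encodes a paternally expressed hydrolase-like protein of mesoderm and lies on chr4:85146514-85165192 (plus strand). The mean level per foal in AC ranged from 5.46 to 7.04 with a median of 6.48, and per adult from -0.69 to 3.17 with a median of 1.85. The groups did not overlap, and adults varied more than foals, with an SD of 1.42 against 0.56 (n = 6 each). In CPM the means were 93.1 and 4.65. The fitted AC difference was 5.04 (SE 0.48), with adjusted p of 0.00813 (fetlock), 0.000926 (hock) and 5.03e-05 (stifle).

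In SCB MEST was also higher, by 2.09 (SE 0.27), and was called in the hock (adjusted p = 0.00105) and stifle (adjusted p = 0.0202) but not in the fetlock, where the difference was 1.24 (SE 0.40; adjusted p = 0.65). The SCB call was lost with sequencing batch in place of the surrogate variables, at 1.40 (adjusted p = 0.308). Foals ranged from 4.35 to 6.10 with a median of 4.82 and adults from 2.23 to 4.56 with a median of 3.02. The highest adult was the 9-year-old, above the 1-week and 2-week foals, and 4 of 6 foals were above all adults (exact permutation p = 0.00649). The MEST model overlaps the end of COPG2, which runs on the other strand from 85165097, and how strand was treated in counting is not given in the sources used here. COPG2 was not called in either tissue, with fitted differences of -0.53 (SE 0.21) in AC and -0.23 (SE 0.13) in SCB. Leaving out 1 horse gave -1.185 to -0.42 in AC and -0.34 to -0.13 in SCB for COPG2.

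PEG3, a paternally expressed zinc finger protein on chr10:26214317-26246542 (minus strand), had fitted differences of opposite sign in the tissues. In AC foals ranged from 6.46 to 8.55 with a median of 8.39 and adults from 6.47 to 7.83 with a median of 7.23. The 1-week foal, at 6.46, was below every adult, and the other 5 foals were above every adult. PEG3 was called in the AC stifle, with a difference of 2.07 (SE 0.27; adjusted p = 0.00297), and not in the fetlock (1.02, SE 0.25; adjusted p = 0.786) or hock (1.30, SE 0.22; adjusted p = 0.104). This call was lost in the fit on horse means, which also leaves out the surrogate variables (0.93, adjusted p = 0.566 with the TREAT test). The exact permutation test of the same horse means gave p = 0.0519, and without the 1-week foal their difference was 1.26 (exact permutation p = 0.00433). The call was also lost on leaving out the 3-day foal, the 9-year-old or the 12-year-old sampled by joint, with fitted differences of 1.09, 1.31 and 1.06, and without surrogate variables or with batch in their place, at 1.03 and 0.49.

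In SCB PEG3 ranged from 5.91 to 7.51 with a median of 6.65 in foals and from 7.20 to 7.48 with a median of 7.32 in adults. The 4-week foal was above all adults and the other 5 foals were below them. The fitted difference was -0.45 (SE 0.11) and was not called in any joint (adjusted p = 1). Leaving out 1 horse gave fitted differences of -0.88 to -0.29. The exact permutation p of the horse means was 0.0238, and 0.0563 on leaving out either 10-year-old or the pooled 12-year-old. No test was run across tissues, because they were normalized separately.

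PLAGL1, a paternally expressed zinc finger transcription factor that regulates a network of imprinted genes, lies on chr31:21952728-22035419 (plus strand). Its AC level was 5.90 to 6.90 with a median of 6.16 in foals and 4.09 to 5.87 with a median of 4.52 in adults. In SCB it was 5.999 to 6.70 with a median of 6.40 in foals and 5.40 to 5.99 with a median of 5.76 in adults. In both tissues the highest adult mean was just under the lowest foal mean, without overlap. Single libraries overlapped, with foals from 5.79 and adults up to 5.97 in AC, and foals from 5.90 and adults up to 6.07 in SCB. The fitted differences were 0.67 (SE 0.13) in AC, where the horse means differed by 1.44, and 0.64 (SE 0.09) in SCB. In AC the pooled adults were at 4.09 to 4.66 and the libraries of the adults sequenced with foals at 5.56 to 5.97, and the difference was 0.20 within that batch and 0.24 with batch in place of the surrogate variables. Neither was called by the TREAT test (adjusted p = 1 in AC and 0.739 in SCB), and both passed a test of no change, at 0.0191 and 0.00031.

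GRB10, an adaptor that dampens insulin and IGF receptor signalling and, in mice, is maternally expressed in most fetal tissues, lies on chr4:20372622-20577702 (minus strand). In AC it was 5.65 to 7.67 with a median of 5.997 in foals and 4.03 to 5.65 with a median of 4.95 in adults. The lowest foal and the highest adult were both at 5.65, and the 1-week foal was far above the others. The fitted AC difference of 1.24 (SE 0.29) was not called (adjusted p = 0.48), although it was without the 12-year-old sampled by joint (1.82, adjusted p = 0.0142). In SCB levels were 6.88 to 7.99 in foals and 7.08 to 7.44 in adults, and the difference of 0.42 (SE 0.10) was not called (adjusted p = 1). Leaving out 1 horse gave fitted SCB differences of 0.14 to 0.47, and the SCB horse means differed by 0.12.

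CDKN1C (p57Kip2), a maternally expressed inhibitor of cyclin-dependent kinases that restrains growth, lies on chr12:35078571-35080986 (minus strand). In SCB it was 2.59 to 3.91 with a median of 3.33 in foals and 4.44 to 5.27 with a mean of 4.90 in adults. Every foal was below every adult. The mean level was 10.7 CPM in foals and 30.7 CPM in adults, which is 2.88-fold higher in adults. The fitted difference was -1.05 (SE 0.16) and was called in the fetlock, at -1.43 (SE 0.25; adjusted p = 0.0293), and not in the hock (-0.99, SE 0.27; adjusted p = 0.729) or stifle (-0.72, SE 0.29; adjusted p = 1).

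The CDKN1C call was lost in 5 of 12 fits that left out 1 horse (the 9-year-old, either 10-year-old, the pooled 12-year-old or the 2-week foal), in which the difference ranged from -1.10 to -0.97. It was also lost with horse as a random effect (-1.57, adjusted p = 0.117), without surrogate variables (-1.53, adjusted p = 0.111) and with batch in their place (-0.91, adjusted p = 1), and was kept with 1 value per horse (-1.61, adjusted p = 0.00463). In AC the gene was 4.32 to 5.33 in foals and 4.28 to 5.58 in adults, which overlap, and its fitted difference was 0.21 (SE 0.24; adjusted p = 1). The sign of that AC value turned without surrogate variables, at -0.01.

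IGF2BP3, an RNA-binding protein found chiefly in the fetus, placenta and tumours, lies on chr4:55073184-55209960 (minus strand). In SCB it ranged from 3.40 to 4.12 with a median of 3.56 in foals and from -2.73 to -1.17 with a median of -1.64 in adults. The lowest foal library held 168 reads at the mean library and the highest adult library 7.36 reads, and 3 of 10 adult libraries had no reads. Mean levels were 13.7 CPM and 0.182 CPM. The fitted difference was 5.68 (SE 0.22), with adjusted p of 1.7e-09 (fetlock), 1.53e-09 (hock) and 7.8e-09 (stifle).

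In AC IGF2BP3 was near the limit of the depth in adults. Foals ranged from -0.52 to 1.01 with a median of 0.81 and adults from -3.17 to -1.06 with a median of -2.62. Foal libraries held 12.6 to 81.3 reads at the mean library and adult libraries 0 to 9.99, and the ages did not overlap. The fitted difference was 3.48 (SE 0.33), with adjusted p of 0.000377 (fetlock), 0.000433 (hock) and 0.00682 (stifle). With 1 added to each CPM before the log the difference was 1.19 and the call was lost.

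IGF2BP2, a paralogue that also binds IGF2 mRNA, lies on chr19:26218637-26365473 (minus strand). In SCB its horse means were 4.51 to 5.96 with a median of 5.56 in foals and 3.57 to 4.06 with a median of 3.80 in adults, without overlap. Single libraries did overlap, with foals from 3.735 and adults up to 4.23. The fitted difference was 2.04 (SE 0.16), with adjusted p of 0.00107 (fetlock), 2.62e-05 (hock) and 0.00211 (stifle), and mean CPM was 46.9 and 14.1. With sequencing batch in place of the surrogate variables the call was lost, at 1.80 (adjusted p = 0.0514). In AC the ranges overlapped, at 1.81 to 4.44 in foals and 0.18 to 3.38 in adults, and the difference of 1.28 (SE 0.41) was not called (adjusted p = 0.714). The highest foal there was the 1-week foal and the highest adult was a 10-year-old, the same AC libraries that stood apart in the cell type genes given above, whose part was not tested. Without that adult the fitted difference was 2.04 and was called (adjusted p = 0.0263), and it was also called without the 9-year-old (1.67, adjusted p = 0.00439) or the other 10-year-old (1.69, adjusted p = 0.00568). Over all 12 fits that left out 1 horse, the fitted AC difference ranged from 0.56 to 2.04.

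HMGA2, a chromatin protein of embryonic and mesenchymal cells, lies on chr6:82552985-82681843 (plus strand). In SCB it was 1.61 to 2.91 with a median of 2.45 in foals and 0.41 to 1.43 with a median of 0.88 in adults. The horse means did not overlap, while single libraries did, with foals from 1.34 and adults up to 2.23. The fitted difference of 1.22 (SE 0.23) was not called (adjusted p = 0.246), and with 1 value per horse it was 1.46 and called (adjusted p = 0.0161), as it was without the 1-day foal (1.31, adjusted p = 0.0491). In AC the gene was near the limit of the depth, at 2.18 to 57.5 reads in foal libraries and 1.3 to 70.1 in adult libraries, and foals (-1.80 to 0.18) overlapped adults (-1.75 to 0.31). The highest AC value was in the fetlock library of the 8-year-old, at 1.44, and without it the fitted difference turned from -0.07 (SE 0.53) to 0.10.

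A moderated test of no change, in place of the 1.5-fold threshold, called 6 of 9 members higher in AC and 6 of 8 in SCB, where it called 13.8% and 25.2% of all genes higher. It called 0 members lower in AC and 1 in SCB, against 11.8% and 27.4% of all genes. The members it added were PLAGL1 and GRB10 in both tissues and HMGA2 in SCB.

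The batch that held both ages had 6 foal and 4 adult libraries in AC and 6 of each in SCB. They came from only 2 foals and 2 adults and were taken as independent, so p within this batch can be too small. The fit with batch in place of the surrogate variables takes the age difference from these same horses. Its mean differences are the same or nearly so, and the 2 settings are not separate checks. Within it the fitted AC differences were 6.12 for DLK1, 5.01 for MEST, 3.93 for IGF2BP3 and 0.43 for PEG3. With the TREAT test 0 of the 9 members were called there (adjusted p of at least 0.101), and 0.213% of all genes were. At an unadjusted p under 0.05 with the TREAT test, in at least 1 joint and in either direction, there were 6 of 9, against 20.2% of all genes. They were DLK1, MEST, IGF2BP3, GRB10, IGF2BP2 and HMGA2, and the mean difference of HMGA2 over the joints was 0.14. In SCB IGF2BP3 was 6.18 (adjusted p = 0.000664) and IGF2BP2 1.80 (adjusted p = 0.0477), both called, where 7.91% of all genes were called in either direction, while MEST was 1.40 (adjusted p = 0.368) and CDKN1C -0.91 (adjusted p = 1). The differences of DLK1, MEST and IGF2BP3 in AC and of IGF2BP3 and IGF2BP2 in SCB were thus of like size within the batch, and those of PEG3 in AC and MEST in SCB were smaller. Among AC members not called, PLAGL1 was smaller (0.20), and GRB10 (2.21) and IGF2BP2 (2.94) were larger.

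**Figure D2:**
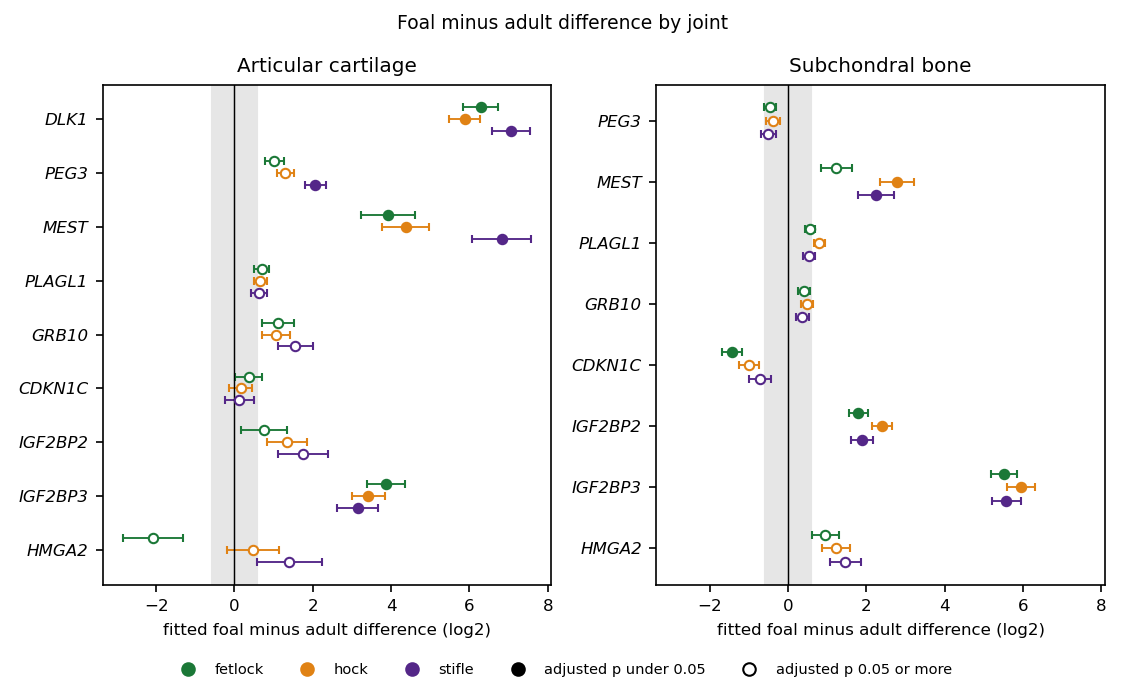
Fitted foal minus adult difference in log2 units (x axis) for each member and joint in AC (left) and SCB (right), with bars of 1 SE, filled points where the adjusted p was under 0.05, and grey shading for changes within 1.5-fold. DLK1, MEST and IGF2BP3 are filled in all 3 joints of AC, and IGF2BP2 and IGF2BP3 in all 3 joints of SCB.

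By joint, DLK1, MEST and IGF2BP3 were called in the AC fetlock, where 2.41% of all genes were called higher and 1.29% lower, and in the AC hock, against 2.23%. In the AC stifle PEG3 was called as well, against 2.12%. In SCB IGF2BP2 and IGF2BP3 were called higher in the fetlock (6.69% of all genes), and MEST was added in the hock (7.51%) and stifle (6.40%). CDKN1C was called lower in the SCB fetlock, against 7.46%. A call in 1 joint and not in another does not show that joints differ, and the difference between joints was therefore tested.

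No member was called for an age difference that differed between joints (adjusted p under 0.05), where 0.158% of AC genes and 0.106% of SCB genes were. At an unadjusted p under 0.05, 3 AC members (PEG3, MEST and HMGA2) and MEST in SCB showed such a difference in limma's moderated test, as did 21.7% of all AC genes and 14.9% of all SCB genes. The smallest adjusted p in AC were 0.166 for HMGA2 (fetlock minus stifle -3.48, SE 0.94), 0.215 for MEST (-2.89, SE 0.85) and 0.216 for PEG3 (-1.05, SE 0.31). For MEST the fitted AC difference was 6.82 (SE 0.74) in the stifle and 3.93 (SE 0.69) in the fetlock. Each joint had few adult libraries, and the pooled adults, each a mix of the joints, were assigned to 1 joint each. The adult joints thus rest partly on different horses, so this test cannot tell a joint from its adults, and nothing is concluded from it. Among foals alone the fitted AC fetlock minus stifle difference was -0.98 for HMGA2, -0.63 for MEST and -0.96 for PEG3.

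Among foals alone, no member was called between joints in either tissue, where 0.614% of AC genes and 0.528% of SCB genes were called. At an unadjusted p under 0.05 with the TREAT test, 2 AC members (DLK1 and PEG3) and 0 SCB members differed, against 3.22% and 1.99% of all genes. DLK1 in AC was 4.08 ± 0.71 (SD, n = 6) in the stifle, 2.89 ± 0.21 in the fetlock and 2.53 ± 0.89 in the hock. It was higher in the stifle than in the fetlock in 6 of 6 foals, and the hock value of the 1-week foal, 0.75, was far below the other 5, at 2.62 to 3.13. The hock minus stifle difference was -1.50 (SE 0.30; adjusted p = 0.146). PEG3, MEST and GRB10 in AC were also higher in the stifle than in the fetlock in 6 of 6 foals, and IGF2BP2 in AC was lower in the stifle in 6 of 6 foals. Their fitted fetlock minus stifle differences were -0.96 for PEG3 (adjusted p = 0.418), -0.63 for MEST, -0.77 for GRB10 and 0.73 for IGF2BP2 (adjusted p = 1 for the last 3). These 5 of 9 members compare with 9.39% of all AC genes that were higher in the stifle than in the fetlock in all 6 foals, or lower in all 6. In SCB 0 of 8 members moved one way between these joints in all foals, against 11.6% of all genes.

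The trend with age was examined over 6 foals with 1 value per foal, the mean of 3 joints. Since there was 1 foal at each age, age and the individual cannot be told apart. Of 17 relations (9 members in AC and 8 in SCB), 0 had an exact permutation p of r under 0.05, unadjusted, where 5.18% of AC genes and 6.11% of SCB genes did. Adjusted over all genes, the p of r were 0.73 or higher, and 0 genes of either table passed. The smallest p of r that 720 orders give is 0.00139, so that adjustment could be passed only by many genes at this floor together, and failing it says nothing about whether a trend exists.

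The most negative Pearson's r was that of IGF2BP3 in AC, with r = -0.736 (exact permutation p = 0.0917, adjusted 0.845) and Spearman's rho = -0.714 (exact permutation p = 0.136, adjusted 0.823). Its values were 1.01 at 1 day, 0.75 at 3 days, 0.96 at 1 week, 0.11 at 2 weeks, 0.88 at 3 weeks and -0.52 at 4 weeks. The 4-week foal was the lowest and the 3-week foal was as high as the younger foals. Without the 2 foals farthest from the median age r was -0.866, and within the 4 foals of 1 batch it was -0.7. GRB10 and IGF2BP2 in AC had the most negative rho, -0.771 each (exact permutation p = 0.103, adjusted 0.823), with r = -0.556 (exact permutation p = 0.247, adjusted 0.845) and r = -0.591 (exact permutation p = 0.204, adjusted 0.845). Both were highest in the 1-week foal and lowest in the 4-week foal, and without the 2 foals farthest from the median age their r were -0.231 and -0.317. Within the 4 foals of 1 batch their r were -0.903 and -0.809.

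PLAGL1 in SCB had r = -0.732 (exact permutation p = 0.0958, adjusted 0.73) and rho = -0.6 (exact permutation p = 0.242, adjusted 0.846), with 6.70 at 1 day and 5.999 at 4 weeks. Here r fell to -0.354 without the 2 foals farthest from the median age, and was -0.917 within the 4 foals of 1 batch. CDKN1C in SCB had r = -0.675 (exact permutation p = 0.151, adjusted 0.732) and rho = -0.543 (exact permutation p = 0.297, adjusted 0.9), and GRB10 in SCB r = -0.655 (exact permutation p = 0.171, adjusted 0.742) and rho = -0.543 (exact permutation p = 0.297, adjusted 0.9). Within the 4 foals of 1 batch r was -0.517 for CDKN1C and -0.643 for GRB10 in SCB. For CDKN1C the 3 youngest foals were at 3.57, 3.77 and 3.91 and the 3 oldest at 2.59, 2.84 and 3.09. Of the youngest, the 3-day and 1-week foals were sequenced in another batch than the 3 oldest, so this split follows batch in part. The erythroid sums in SCB split the same foals, at 60.7 to 137 CPM in the 3 youngest and 980 to 2177 CPM in the 3 oldest, and their part in the SCB trends was not tested.

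DLK1 in AC had r = -0.279 (exact permutation p = 0.612, adjusted 0.91) and rho = -0.543 (exact permutation p = 0.297, adjusted 0.89). Its foal means were 3.46, 3.72, 2.40, 3.29, 3.05 and 3.07 from the youngest to the oldest, with the 1-week foal lowest. Within the 4 foals of 1 batch r was -0.946 (no test), and without the 2 foals farthest from the median age it was -0.297. MEST had r = 0.209 in AC (exact permutation p = 0.703, adjusted 0.93) and -0.203 in SCB (exact permutation p = 0.71, adjusted 0.919), with rho of 0.0286 (exact permutation p = 1) and -0.2 (exact permutation p = 0.714). IGF2BP3 in SCB had r = -0.14 (exact permutation p = 0.776, adjusted 0.939) and rho = 0.0857 (exact permutation p = 0.919), and its 6 foals lay within 3.40 to 4.12. DLK1 and MEST in AC and IGF2BP3 in SCB were above every adult at each of the 6 ages, the 4-week foal included.

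**Figure D3:**
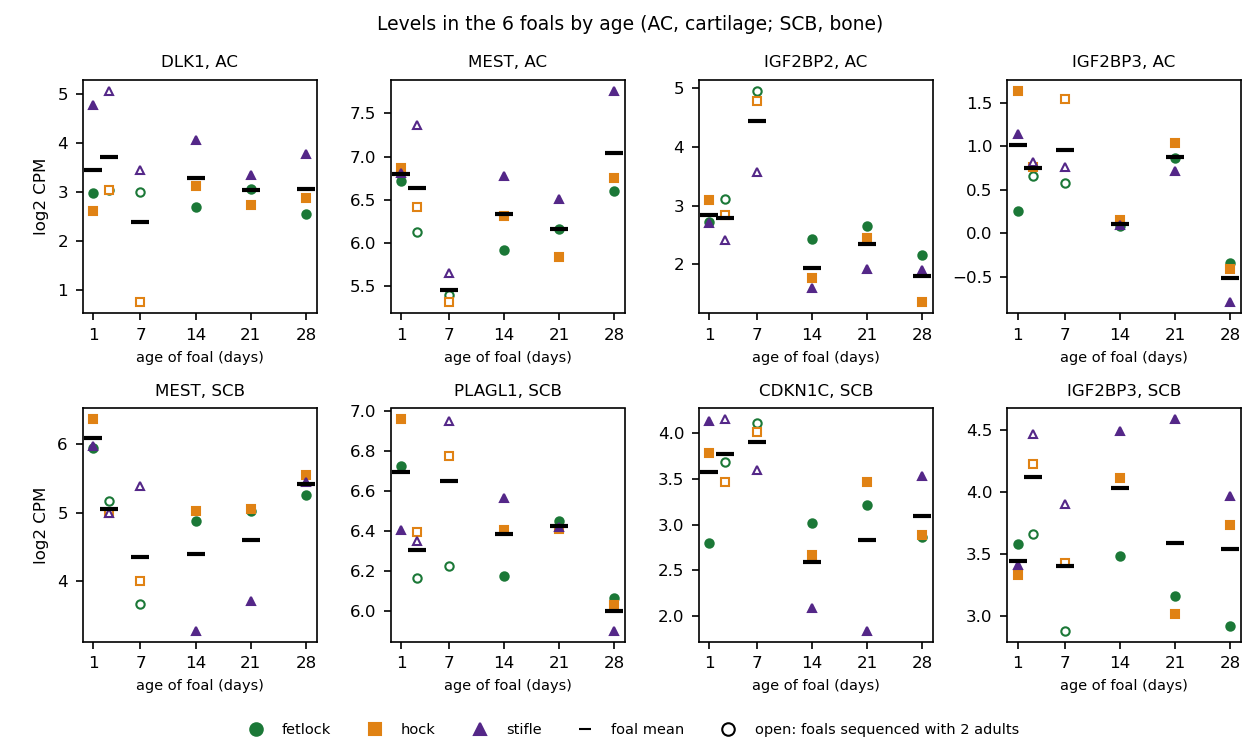
Log2 CPM in the 6 foals against age in days for 8 combinations of member and tissue, with 1 symbol per joint, a black dash for the mean of 3 joints, and open symbols for the 2 foals that were sequenced with 2 adults. IGF2BP3 in AC is lowest in the 28-day foal, at -0.52, while DLK1 in AC stays between 2.40 and 3.72; the panels have different y scales.

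Other imprinted genes were counted from a list of 26 symbols, imprinted in other mammals, of which 19 were measured in each tissue. In AC 4 were called higher in foals and 0 lower, where 3.996% of all AC genes were called higher and 2.79% lower, and the list median was -0.127 against 0.0282 over all genes. The 2 largest were H19, a maternally expressed growth-restraining long noncoding RNA beside IGF2, at 5.31 (SE 0.55; adjusted p = 0.000136 with the TREAT test), and PEG10, a paternally expressed gene derived from a retrotransposon, at 4.58 (SE 0.35; adjusted p = 1.28e-05). The 6 foals were at 3.03 to 5.97 for H19 and 2.42 to 6.87 for PEG10, and the adults at -3.17 to 3.51 and 0.38 to 2.09. For H19, 4 of 8 adult libraries had no reads and a pooled adult was at 3.51, within the foal range.

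RTL1 and IGF2R were the other 2, and RTL1 and its neighbour DIO3 are named after their values were seen. RTL1, a paternally expressed retrotransposon-derived gene, lies on chromosome 24 at 43182999 to 43192234, downstream of DLK1 in the same imprinted domain. It was at -0.89 to 1.52 in the foals and -3.17 to -2.82 in the adults, 6 of 8 adult libraries had no reads, and its fitted difference was 3.50 (SE 0.40; adjusted p = 0.00078). DIO3, farther along chromosome 24 at 43799970 to 43802045, was at -0.80 to 4.53 in foals and 0.14 to 3.91 in adults, and its difference was -0.36 (SE 0.46; adjusted p = 1), a sign that turned with sequencing batch as a term (1.698, adjusted p = 1). IGF2R, the receptor that clears IGF2, was at 6.99 to 8.09 in foals and 5.12 to 6.49 in adults, with a difference of 1.70 (SE 0.22; adjusted p = 0.00996), and its call was lost without the 2-week foal (1.69, adjusted p = 0.0662). With sequencing batch in place of the surrogate variables PEG10 and RTL1 were not called, at 3.81 (adjusted p = 0.245) and 3.37 (adjusted p = 0.0527), and with 1 added to each CPM before the log RTL1 was not called either, at 1.34 (adjusted p = 0.195).

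IGF2 itself, the main fetal growth factor of this axis, was not called in either tissue and is named for that role, after its values were seen. In AC it was at 1.49 to 4.67 in foals and 0.20 to 4.91 in adults, with a fitted difference of 1.70 (SE 0.50; adjusted p = 0.111). It was called higher with sequencing batch in place of the surrogate variables (3.60, adjusted p = 0.00386), under quantile normalization (1.825, adjusted p = 0.0421) and without either 10-year-old or the 1-day foal (1.86 to 2.40). Over all 12 fits that left out 1 horse, the AC difference of IGF2 ranged from 0.43 to 2.40. In SCB it was at 3.46 to 6.73 in foals and 4.97 to 6.63 in adults, with a difference of -0.24 (SE 0.17; adjusted p = 1). H19 in SCB was at 5.06 to 8.93 in foals and 4.23 to 6.47 in adults and was not called, at 1.498 (SE 0.42, adjusted p = 0.446). Leaving out 1 horse gave fitted SCB differences of 0.73 to 1.71 for H19.

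In SCB 2 of 19 other imprinted genes were called higher and 1 lower, where 9.26% of all SCB genes were called higher and 10.6% lower, and the list median was -0.243 against -0.0347 over all genes. DIRAS3, an imprinted growth-restraining GTPase, was lower by -3.27 (SE 0.36; adjusted p = 0.00179 with the TREAT test), at -2.96 to -1.90 in foals and -1.24 to 2.24 in adults, and its call was lost without the 3-day foal (-2.26, adjusted p = 0.101). Its foals lie at or near the value without reads, and with 1 added to each CPM before the log the difference was -1.35 and not called (adjusted p = 0.238). NNAT was called higher at 1.61 (SE 0.24; adjusted p = 0.0228), but its horse means overlapped (-1.29 to 0.52 against -2.71 to -0.35), and the call was lost in 6 of 12 fits that left out 1 horse (either adult sampled by joint, or the 1-day, 3-day, 1-week or 4-week foal), in which the difference fell to as low as 0.55, and also without surrogate variables, with 1 value per horse, with horse as a random effect and with 1 added to each CPM. The third was IGF2R, higher by 1.37 (SE 0.10; adjusted p = 0.000214), at 7.68 to 8.47 in foals and 6.11 to 6.83 in adults. RTL1 in SCB was not analysed here.

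**Figure D4:**
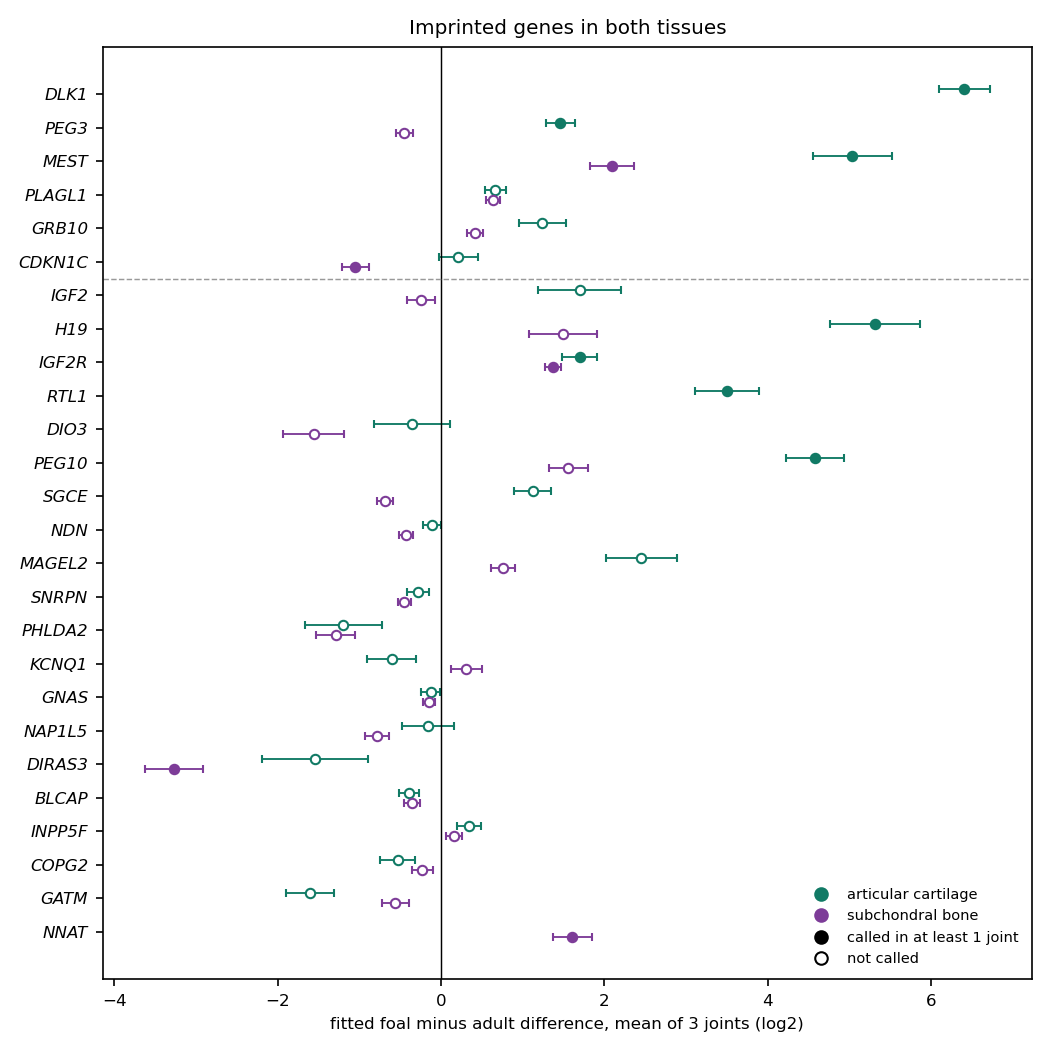
Fitted foal minus adult difference in log2 units (mean of 3 joints, bars of 1 SE) of the imprinted members (above the dashed line) and of other imprinted genes in AC (green) and SCB (purple), filled where called in at least 1 joint. DLK1, MEST, H19, PEG10 and RTL1 in AC lie between 3.50 and 6.41, and DIRAS3 in SCB is at -3.27.

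Of the genes linked to LIN28 and let-7, 1 of 10 was called higher in AC and 5 of 11 were called higher and 1 lower in SCB, where 3.996% of all AC genes and 9.26% of all SCB genes were called higher. The share called lower was 10.6% of all SCB genes. ARID3A, a DNA-binding protein and let-7 target, was higher in both tissues, by 2.39 (SE 0.31; adjusted p = 0.00985) in AC and 3.43 (SE 0.21; adjusted p = 1.11e-07) in SCB with the TREAT test. The AC call of ARID3A was lost without the 1-week foal (2.06, adjusted p = 0.0564), with sequencing batch as a term (3.98, adjusted p = 0.0971), without surrogate variables (3.21, adjusted p = 0.109) and with 1 added to each CPM before the log (0.93, adjusted p = 1). IGF2BP1, the third member of the IGF2BP family, was higher in SCB by 2.91 (SE 0.24; adjusted p = 5.92e-05), at -0.79 to 1.97 in foals and -2.96 to -1.87 in adults. All 3 IGF2BP genes were therefore called higher in foal SCB, although the IGF2BP1 call was lost within the batch that held both ages (3.655, adjusted p = 0.0661), and IGF2BP3 alone of the 2 analysed in AC. The list medians were 0.329 in AC and 0.502 in SCB.

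In the IGF axis 2 of 17 genes were higher and 1 lower in AC, and 3 were higher and 4 lower in SCB, with list medians of 0.569 and -0.243. Of all genes 3.996% were called higher and 2.79% lower in AC, and 9.26% and 10.6% in SCB. PAPPA2, a protease that frees IGFs from their binding proteins, was at 3.93 to 6.35 in foal AC and -1.51 to 0.49 in adult AC, a fitted difference of 4.87 (SE 0.55; adjusted p = 0.000234 with the TREAT test). IGFBP5 and IGFBP6, which bind IGFs, were lower in foal SCB, by -2.57 (SE 0.23; adjusted p = 6.36e-05) and -2.55 (SE 0.25; adjusted p = 0.000646). IGFBP2, another binding protein, named after its values were seen, was called higher in foal SCB by 1.82 (SE 0.22; adjusted p = 0.00213), at 7.31 to 9.24 in foals and 5.92 to 7.20 in adults. Its call was lost without surrogate variables (1.67, adjusted p = 0.104) and with batch in their place (2.12, adjusted p = 0.0514). IGFBP5, named after its values were seen, was called lower in AC as well, at -1.52 (SE 0.43; adjusted p = 0.046), with horse means that overlapped (7.21 to 8.57 in foals and 7.51 to 10.40 in adults). That AC call was lost in 6 of 12 fits that left out 1 horse (the 8-year-old, either 12-year-old, or the 3-day, 3-week or 4-week foal), in which the difference ranged from -1.60 to -0.38, without surrogate variables (-0.97), with 1 value per horse (-0.62), with horse as a random effect (-0.85) and under quantile normalization (-1.415). The other gene called in AC was IGF2R.

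Proliferation genes stood beside these changes. In SCB 16 of 17 were called higher in foals and 0 lower, with a list median of 3.06, and in AC 5 of 17 were higher and 0 lower, with a median of 2.06, against the 9.26% and 3.996% of all genes called higher. MKI67 in SCB was at 5.28 to 8.26 in foals and 1.19 to 2.63 in adults (difference 4.39, SE 0.21; adjusted p = 2.26e-08 with the TREAT test), and RRM2 differed by 3.99 (SE 0.23; adjusted p = 5.26e-07). TOP2A and BUB1 in AC differed by 4.13 (SE 0.72; adjusted p = 0.03) and 3.03 (SE 0.42; adjusted p = 0.0112). Both AC calls were lost without the 3-week or the 4-week foal, and that of TOP2A without the 2-week foal, with fitted differences of at least 2.79. Both were lost too with horse as a random effect, at 4.19 for TOP2A (adjusted p = 0.1) and 3.05 for BUB1 (adjusted p = 0.102). With 1 added to each CPM before the log both calls were lost, at 2.45 (adjusted p = 0.238) and 1.18 (adjusted p = 0.717). The BUB1 call was also lost without surrogate variables (3.16, adjusted p = 0.0907) and with batch in their place (2.82, adjusted p = 0.336). Under quantile normalization BUB1 was at 2.50 and not called (adjusted p = 0.101). Of the other CDK inhibitors, 0 of 5 were called in AC (list median 0.0215), while in SCB (list median 0.211) CDKN1B was lower like CDKN1C (-1.30, SE 0.10; adjusted p = 0.000226) and CDKN2D was higher (2.05, SE 0.19; adjusted p = 0.000517), a call lost with batch in place of the surrogate variables (2.55, adjusted p = 0.0576). The CDKN1B call was lost without the 3-day foal (-0.81, adjusted p = 0.0544), without the 12-year-old sampled by joint (-0.94, adjusted p = 0.116), with 1 value per horse (-0.86, adjusted p = 0.266), with horse as a random effect (-0.93, adjusted p = 0.369) and without surrogate variables (-1.04, adjusted p = 0.274). The myeloid and B cell genes given above were higher in the same foal SCB, and the part of cell makeup in the changes of IGF2BP2, IGF2BP3, MEST and CDKN1C was not tested.

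Within the batch that held both ages, several of these list genes were not called. In AC they were H19 (7.30, adjusted p = 0.262), IGF2R (2.18, 0.124), RTL1 (3.365, 0.718), PEG10 (3.64, 1), ARID3A (4.10, 0.991), TOP2A (4.84, 0.202), BUB1 (2.75, 1) and IGFBP5 (-2.15, 0.221). In SCB they were IGF2R (1.43, adjusted p = 0.287), NNAT (2.17, 0.301), DIRAS3 (-3.78, 0.103), IGF2BP1 (3.655, 0.0661), IGFBP2 (2.12, 0.0586) and IGFBP6 (-2.355, 0.268). PAPPA2 in AC (4.66, adjusted p = 0.0384) and IGFBP5 (-2.775, 0.0481), MKI67, RRM2, CDKN1B and CDKN2D in SCB were called there as well.

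The genes most like each called member were found over 18 libraries of 6 foals, which share animals and depth. In AC the 2 highest Pearson r were with NPAS3 (0.815) and MAP9 (0.774) for DLK1, with ANGPTL1 and ADGRG6 (0.926 each) for PEG3, with SMOC2 (0.872) and CHST6 (0.868) for MEST, and with NOL10 and RDH13 (0.857 each) for IGF2BP3. In SCB they were with EMB (0.951) and ANPEP (0.949) for MEST, with HSPG2 (0.899) and LHX6 (0.886) for CDKN1C, with PI4K2A (0.955) and MSI1 (0.952) for IGF2BP2, and with CDC14A (0.937) and PAG1 (0.92) for IGF2BP3. MEST had different closest genes in the 2 tissues. These are descriptions of likeness over these libraries.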

How the data were processed

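RNA was sequenced from AC and SCB of 6 foals and 6 adult horses. The authors trimmed reads (Trimmomatic 0.38, per the submitters' processing notes), estimated counts with Salmon 0.11.3 on the EquCab3.0 transcriptome (NCBI annotation), summed them to genes, dropped genes that did not reach 1 CPM in 2 or more samples, and deposited log2 CPM values scaled by trimmed mean of M values with a prior count of 3. Stifle AC of 2 foals is the sum of a superficial and a deep sample. Raw counts were not used here, so depth is known only as the mean effective library, 27030000 reads in AC and 23280000 in SCB, recovered from the lowest value.

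Groups came from the labels; the joint of pooled adults is the one the column names assign. In R 4.3.3 with limma 3.58.1 and statmod 1.5.0, a trend fit of 6 age and joint groups plus 5 surrogate variables (iteratively reweighted, 5 iterations) was run on each whole table, with TREAT at a fold change of 1.5 and Benjamini-Hochberg over 9 contrasts, leaving 15 and 17 residual degrees of freedom. The procedure was tested on simulated data, for which no values are given here. Fitted differences are means of 3 joints unless a joint is named, and can differ from differences of horse means. Named genes were all members, the 2 largest called genes of each list, and the 2 most correlated genes of each called member. Others (RTL1, DIO3, IGF2, COPG2, IGFBP2, IGFBP5 in AC, H19 in SCB, IGF2R in SCB) were named after their values were seen. The same foals gave all joints, and libraries of 1 foal deviated together (correlation 0.244 to 0.798 over 18 pairs in AC and 0.193 to 0.803 in SCB). Adults and foals are different animals, so age was not blocked. The fit takes libraries as independent, so its adjusted p can be too small; the fits with 1 value per horse and with horse as a random effect take the horse as the unit and hold no surrogate variables. Alternatives covered surrogate variables, batch, 1 value per horse, horse as a random effect, pseudocount, low-value filter, quantile normalization and horses left out. The members and lists were chosen with earlier results of these data known.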

Additional observations from a re-analysis of the deposited data

Results flagged for a closer look

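A horse was singled out where its distance to the nearest of the others was large against the range of its group of 6 (Dixon's criterion). Of 85 groups examined (horse means by age, and foals by joint), 10 were singled out, where chance gives about 1 in 20, or 4.25. The groups are not independent, since the horse means contain the joint values.

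In 8 of the 10 the horse was the 1-week foal. For PEG3 in AC it was low in the horse mean (6.46, next foal 8.29), the fetlock (6.28, next 7.80), the hock (5.51, next 7.98) and the stifle (7.60, next 8.66), and PEG3 in the SCB fetlock was low as well (5.91, next 6.84). DLK1 in its AC hock was 0.75, next 2.62. Its GRB10 horse mean in AC was high (7.67, next 6.32), as was IGF2BP2 in the AC fetlock (4.96, next 3.12). The other 2 were the 1-day foal, high for PLAGL1 in the AC stifle (7.35, next 6.36), and the 12-year-old sampled by joint, whose DLK1 mean of -3.01 in AC stands apart from -3.17 only through about 1 read. No member was singled out for opposite complete separation of the ages in the 2 tissues or for an age difference that differed between joints.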

How the results depend on the processing

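In AC the number of members called higher (4) was 3 to 5 on leaving out each horse, and 0 within the batch with both ages; 0 were called lower in these fits. In SCB the number called higher (3) was 3 to 4 on leaving out each horse, 1 with sequencing batch in place of surrogate variables and 6 with the test of no change. The number called lower (1) was 0 to 1 on leaving out each horse and 0 without surrogate variables, with batch in their place, with horse as a random effect and within the batch. The fits with batch as a term and within the batch take the age difference from the same horses and are not separate checks. DLK1, MEST and IGF2BP3 in AC and MEST, IGF2BP2 and IGF2BP3 in SCB kept their calls in all 12 fits that left out a horse. All genes called in AC (1116) came to 610 without surrogate variables, 397 with batch, 35 within the batch, 4196 with the test of no change, 701 with the filter of mean log2 CPM at least 1 and 762 to 2693 on leaving out a horse (2693 without a 10-year-old, 1876 without the 12-year-old sampled by joint). In SCB (3576) they came to 2224, 2131, 1425 and 9455 under the first 4 of these and 2966 to 4514 on leaving out a horse. Among foal joints, 0 members were called with the foal as a replicate block or on leaving out each foal; all genes called were 101 in AC (82 with the block, 51 without surrogate variables) and 95 in SCB (25, 30, and 85 to 236, the last without the 1-day foal). Members with an exact p under 0.05 over horse means numbered 6 in AC (5 to 6 leaving out a horse) and 7 in SCB (6 to 7), the criterion that 40.4% and 55.2% of all genes met.

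Values that turned sign were not called before or after. In AC HMGA2 was 0.0807 without surrogate variables, 0.16 with batch in their place, 0.16 with horse as a random effect, 0.14 within the batch, 0.10 without the fetlock library of the 8-year-old (added after seeing the data) and -0.48 to 0.12 leaving out a horse. In AC CDKN1C was -0.0123 without surrogate variables, -0.0927 with 1 value per horse, -0.14 with horse as a random effect and -0.12 to 0.42 leaving out a horse. Over horse means, leaving out a horse gave -0.241 to 0.0286 for CDKN1C and -0.335 to 0.0823 for HMGA2 in AC, and -0.00974 to 0.212 for GRB10 in SCB. DIO3 in AC was 1.698 with batch in place of surrogate variables, 1.841 within the batch and -0.883 to 0.375 leaving out a horse, and IGF2 in SCB was 0.213 in both batch settings and -0.689 to 0.09995 leaving out a horse. The r with age turned with log2 of age for MEST in AC (-0.1085), PEG3 in SCB (-0.131) and IGF2BP3 in SCB (0.0201), in the fetlock alone for PLAGL1 in AC (0.355) and IGF2BP2 in SCB (0.382), in the hock alone for DLK1 in AC (0.253), and in the stifle alone for PEG3 in AC (-0.0147) and SCB (-0.0393) and IGF2BP3 in SCB (0.337). Without the 2 foals farthest from the median age r turned for PEG3 (-0.11) and MEST (-0.394) in AC and for PEG3 (-0.659), IGF2BP3 (0.359) and HMGA2 (0.408, from -0.608) in SCB, and in the 4 foals of 1 batch for PEG3 in AC (-0.204) and IGF2BP3 in SCB (0.0833). In the stifle alone 1 AC member, IGF2BP3, had an unadjusted exact permutation p under 0.05 (r = -0.821, exact p = 0.0264). The share of all AC genes below this p in the stifle alone is not given here, so nothing is concluded from that count. The cause of these changes was not tested. Adult DLK1, IGF2BP3 and HMGA2 in AC lie near the limit of the depth, where differences depend on the added constant.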

Other observations

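Across the 18 foal libraries some members varied together. PEG3 and MEST had Pearson r = 0.772 in AC and 0.738 in SCB, and without the 1-week foal (15 libraries) 0.592 and 0.775. In SCB CDKN1C and GRB10 had r = 0.827 (0.817 without that foal) and PLAGL1 and HMGA2 0.824 (0.749). GRB10 and IGF2BP2 had r = 0.729 in AC and 0.692 in SCB, and 0.33 and 0.78 without that foal. PEG3 and IGF2BP2 in AC had r = -0.869, which was -0.484 without the 1-week foal. The libraries share animals, so these are descriptions without a test.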
